A study of Mus musculus with 4 samples.

Results

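Frrs1 is the mouse gene for ferric chelate reductase 1, and its mRNA carried 18 of the 4206 rows in a list of NAT10 binding peaks. These 18 are all rows of the deposited list whose gene is Frrs1 (ENSMUSG00000033386). The list holds 4172 distinct peaks on 1629 gene identifiers, and none of the 18 was shared with another gene. The peaks were mapped by eCLIP, in which ultraviolet light bonds a protein to its RNA, the protein is immunoprecipitated, and the RNA fragments that come with it are sequenced. There were 2 libraries of NAT10 immunoprecipitate, made with a NAT10 antibody, and 2 input libraries made with none. All came from 32D cells, a mouse line that the labels call bone marrow lymphoblastocytes, with wild-type genotype, grown in 10% FBS with mouse interleukin-3 at 10 ng/mL. Both groups were crosslinked with 150 mJ at 254 nm. Separate cultures for the 2 libraries of a group are not stated in the labels, so the spread between them may be technical. All results thus come from a single cell line, and the list gives no expression level. Of 12 genes typical of myeloid progenitors, 3 had a peak (Csf2rb, Ptprc and Gata2), and of 18 genes typical of B, T and red cells none had, while 7.33% of the 21900 protein-coding genes of the RefSeq table had one. The absence of a peak on 18 genes is near that share. Kit, Mpo and Spi1 were among the myeloid genes without one, which does not show that they were silent.

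NAT10 is the acetyltransferase that writes N4-acetylcytidine, a modification of cytidines in rRNA, tRNA and, as has been reported, mRNA. Frrs1 encodes a membrane protein of the cytochrome b561 family, and such proteins pass electrons across a membrane to reduce ferric to ferrous iron. Ferrous iron is the form that divalent metal transporters carry, so ferric reductases act beside iron uptake and the release of iron from vesicles. The gene was chosen by the log2 fold of its strongest peak in this list, so its peak values are a description, with no test.

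The peaks of Frrs1 lay close together on the plus strand of chromosome 3, from 116692867 to 116697703 (GRCm39), a stretch of 4837 nt. The RefSeq gene table of GRCm38.p6 gives the whole gene a genomic length of 48148 nt, introns included. The stretch from the first to the last peak, with the gaps between peaks, corresponds to 10.0% of that length. The peaks themselves covered 852 nt. The authors placed 8 peaks in exons and 10 in the 3' UTR, and none in the 5' UTR. The shares, 44.4% exon and 55.6% 3' UTR, were near those of the 4154 other peaks of the list, with 36.7% exon, 57.6% 3' UTR and 5.71% 5' UTR. Exon peaks ran from 116692867 to 116696805 and 3' UTR peaks from 116696067 to 116697703, so the classes interleaved. A total of 3 exon peaks lay between 3' UTR peaks. Counting Frrs1, an exon peak between 3' UTR peaks was found in 14 of the 152 genes that had an exon peak and at least 2 peaks in the 3' UTR (9.21%). The sources used here do not name the transcript models behind the authors' classes.

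All 18 peaks exceeded the median of the list in fold and in p. Fold and -log10 p are the authors' own values for a peak, and fold always means NAT10 immunoprecipitate over input. The log2 folds of Frrs1 ran from 5.62 to 9.08 with a median of 7.20, which is 147-fold, against a median of 4.60 (24.3-fold) over all distinct peaks, of which 49.2% lie above that median. The -log10 p ran from 15.9 to 125 with a median of 33.5, against 5.68 over the list, with 49.5% of distinct peaks above it. The weakest Frrs1 peak had a higher log2 fold than 81.5% of all peaks. Among the 223 genes with 5 or more peaks, 30 (13.5%), Frrs1 included, had every peak above the list median fold. Frrs1 ranked 15 of 223 by its median and also 15 by its weakest peak.

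**Figure D1:**
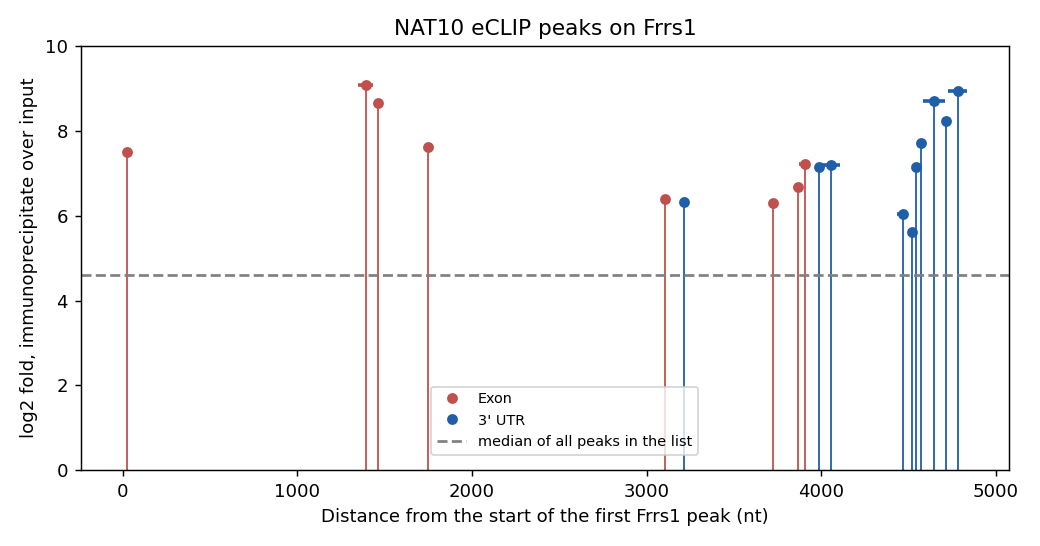
Log2 fold of NAT10 immunoprecipitate over input (vertical axis) for the 18 Frrs1 peaks, placed by distance in nt from the start of the first peak, with horizontal bars for peak width, red for exon and blue for 3' UTR. The highest values, 9.08 and 8.93, stand in an exon 1348 nt from the start and at the 3' end of the stretch, and every peak lies above the dashed list median of 4.60.

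The signal had 2 high points. The strongest peak, in an exon at chromosome 3, 116694215 to 116694299, had a log2 fold of 9.08 (543-fold) and a -log10 p of 125. Only 3 nt further on, the exon peak at 116694303 to 116694351 reached 8.64. The second high point was at the 3' end, where the 3' UTR peak at 116697595 to 116697703 had 8.93 and the one at 116697452 to 116697575 had 8.71. Between the 2 points the remaining peaks had lower folds. They were, in 5' to 3' order, exon peaks of 7.62 and 6.40, a 3' UTR peak of 6.33, exon peaks of 6.29, 6.68 and 7.22 and 3' UTR peaks of 7.15, 7.19, 6.04, 5.62, 7.14 and 7.71, so several stood near the median of the gene.

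The most 5' peak of Frrs1, an exon peak at 116692867 to 116692914 with a log2 fold of 7.49, lay 1300 nt before the next. At the other end 6 peaks touched each other and formed a block of 326 nt, from 116697378 to 116697703. Within that block the log2 folds in 5' to 3' order were 5.62, 7.14, 7.71, 8.71, 8.23 and 8.93, so its 5' edge held the weakest peak of the gene and its 3' edge the strongest 3' UTR peak. Joining the 7 pairs of touching peaks left 11 separate regions. Introns between regions were not taken into account, since the distances are genomic.

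As listed, Frrs1 peaks were short, but 7 pairs of them touched and may be pieces of longer bound stretches. Widths ran from 4 to 124 nt with a median of 34.5 nt, against 79 nt over the list, and the 18 peaks covered 852 nt, of which 64.7% was 3' UTR. Exon peaks had a median width of 35.5 nt and 3' UTR peaks of 34.5 nt. Wider Frrs1 peaks tended to have higher folds (Spearman's rho 0.57 across the 18 peaks, a description only). Over all distinct peaks rho was 0.05. The points share libraries, depth and, where peaks touch, possibly reads.

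Exon and 3' UTR peaks of Frrs1 had overlapping folds. The median log2 fold was 7.35 for the 8 exon peaks, with a range of 6.29 to 9.08, and 7.17 for the 10 peaks in the 3' UTR, with a range of 5.62 to 8.93. Of the exon peaks 7 lay within the range of the 3' UTR peaks. The difference of 0.18 between the medians turned with the library pair, as described next.

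The reads behind each peak could be recovered from the deposited fold and p. In the model used, which no source states, the fold is the mean of 2 log2 ratios of whole read counts, and the p is that of a one-sided Fisher's exact test on the weaker of 2 pairs of immunoprecipitate and input. For 3963 of the 4172 distinct peaks, among them all 18 of Frrs1, exactly 1 combination of immunoprecipitate to input ratios in the 2 pairs was found. The fitted library totals were 2210000 immunoprecipitate and 4100000 input reads in pair A, and 2560000 immunoprecipitate and 4180000 input reads in pair B. Which pair is replicate 1 is not known. Counts are fixed for the pair that set the p. For the other pair only the ratio of immunoprecipitate to input is fixed. The counts printed for it are the lowest whole numbers that give this ratio without a weaker p than the listed one, and the true counts may be multiples of them. Pair A set the p of 13 Frrs1 peaks and pair B that of 5, namely the most 5' peak and 4 peaks in the 3' UTR.

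The strongest Frrs1 peak rested on 279 immunoprecipitate reads against 1 input read in pair A and on 349 against 1 in pair B. The peak 3 nt after it had 200 against 1 in pair A and 264 against 1 in pair B. The strongest 3' UTR peak had 270 against 1 in pair A and 291 against 1 in pair B. Pair A set the p of the first and second of these peaks and pair B that of the third, so the fixed counts of these peaks are 279, 200 and 291 immunoprecipitate reads against 1 input read each.

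In the pair that set the p the input stood at 1 read at 16 of the 18 Frrs1 peaks, and at 76.1% of the recovered peaks of the list, so such low input was not particular to Frrs1. A listed input of 1 may stand for no read, since every listed fold is finite and a fold over 0 reads is not, and these cases cannot be told apart. The other 2 were the 3' UTR peaks at 116697304 to 116697363 and 116697378 to 116697399. The first of these had 71 immunoprecipitate against 2 input reads in pair A, which set its p, and 81 against 2 in pair B. The second had 56 against 2 in pair B, which set its p, and 57 against 2 in pair A. These peaks had the lowest folds of the gene, but not the fewest immunoprecipitate reads. The fewest were 38 in pair A, at the exon peak of 4 nt, which had 53 in pair B. A width of 4 nt with that many reads means that reads reach beyond the peak, so neighbouring peaks may share reads and the counts should not be summed.

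**Figure D2:**
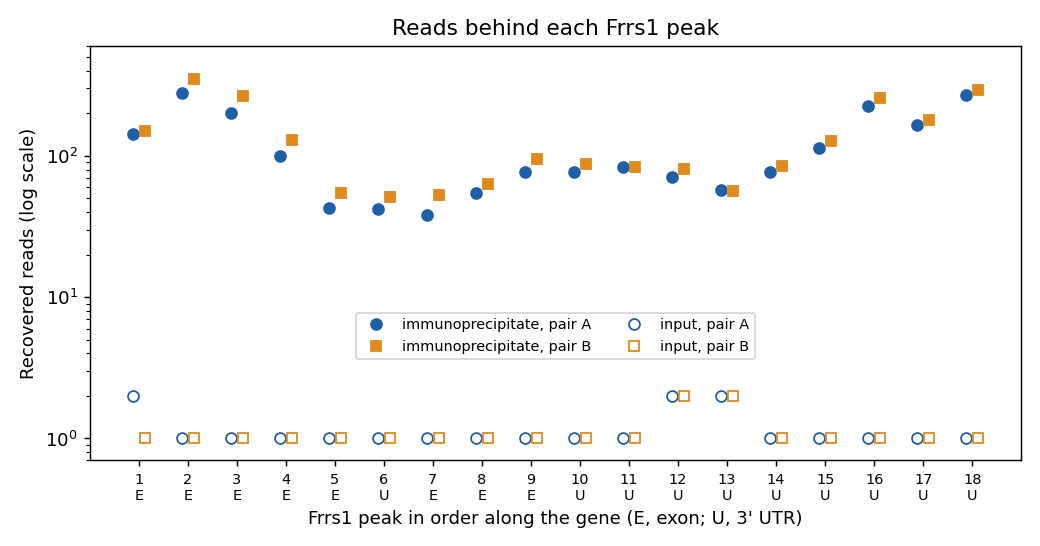
Recovered reads (log scale) in immunoprecipitate (filled) and input (open) of pair A (circles) and pair B (squares) for each Frrs1 peak in order along the gene, marked E for exon and U for 3' UTR. Immunoprecipitate reads run from 38 to 279 in pair A and from 51 to 349 in pair B, while input reads are printed as 1 or 2 throughout, the lowest possible value where the pair did not set the p.

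With these counts, immunoprecipitate reads at Frrs1 had a median of 80.5 in pair A and 91 in pair B, against 16 in pair A and 18 in pair B over the recovered peaks of the list. Per pair, scaled to the fitted totals, the strongest peak had a log2 fold of 9.02 in pair A and 9.15 in pair B. The absolute difference between the pairs had a median of 0.10 at Frrs1, against 0.19 over all recovered peaks. Frrs1 peaks had more immunoprecipitate reads, so these medians are not compared at equal depth. Input was printed as 1 in both pairs at 15 of the 18 Frrs1 peaks and at 73.8% of the recovered peaks. Over all recovered peaks the 90th percentile of the absolute difference between the pairs was 0.60. The median of 0.19 lay under 0.3, so a difference under 0.3 was common in the list, though its share was not counted. At Frrs1 the difference was under 0.3 at 17 of the 18 peaks. The exception was the most 5' peak, with 7.04 in pair A and 7.93 in pair B. It had 150 immunoprecipitate reads against 1 input read in pair B, which set its p. In pair A its ratio is printed as 142 to 2. Under the model, this ratio with only 1 input read would give a weaker p than the listed one. Peaks in the list had passed the authors' cut-offs, so pairs that differ more may be missing from it.

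Pair B gave the higher fold at all 8 exon peaks of Frrs1, by 0.01 to 0.89, and at 2 of the 10 peaks in the 3' UTR, where the difference ran from -0.21 to 0.09. Over both classes that is 10 of 18 peaks, and over the recovered peaks of the list it was 53.6%. The exon median was 7.10 and the 3' UTR median 7.22 in pair A, while in pair B they were 7.50 and 7.13. The exon minus 3' UTR difference was therefore -0.12 in pair A and 0.36 in pair B, so no order of the classes held in both pairs.

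**Figure D3:**
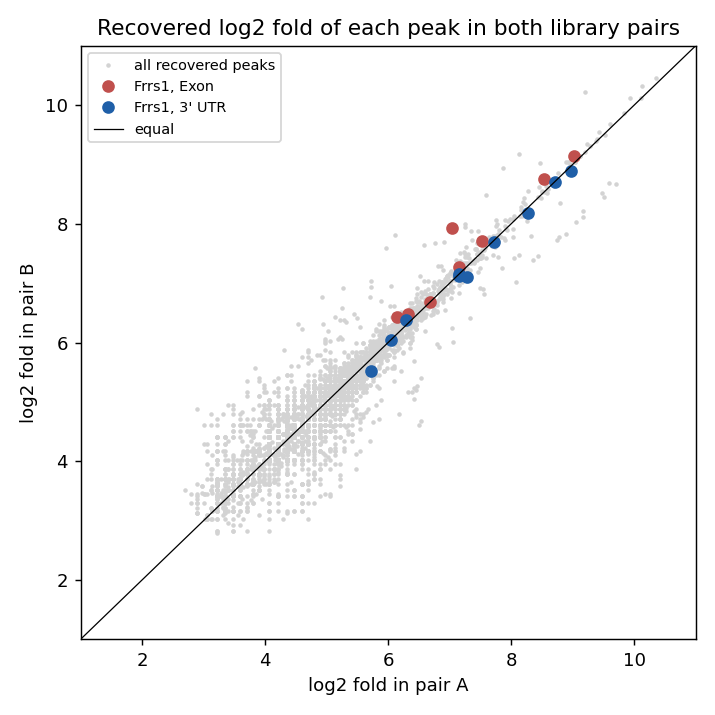
Log2 fold in pair A (horizontal) and pair B (vertical) of the 3963 recovered peaks (grey), with Frrs1 exon peaks in red and 3' UTR peaks in blue and a line of equal values. The Frrs1 peaks follow the line from 5.6 to 9.1 apart from the most 5' exon peak, which has 7.04 in pair A and 7.93 in pair B.

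With an input of 1 read the counting error of a fold is wide. For the strongest Frrs1 peak the exact Clopper-Pearson interval of 95% ran from 6.53 to 14.3 on the log2 scale in pair A, which set its p. For the weakest, at 116697378 to 116697399, it ran from 3.59 to 8.59 in pair B, which set its p. No interval is given for the other pair, whose counts are not fixed. The intervals cover counting error only, and they take a listed input of 1 as an observed read. If that 1 stands for no read, the bounds given for the strongest peak do not hold. The strongest peaks of 134 genes lie above 6.53, so the rank of Frrs1 among them is not resolved at this depth.

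By the authors' values Frrs1 ranked 7 of the 1629 genes by its strongest log2 fold, which is the value that chose it. Just above it stood Ptpre, a tyrosine phosphatase gene, with 9.49, and Mtdh, which encodes a membrane protein linked to tumour growth, with 9.30. Just below stood Uprt, named for uracil phosphoribosyltransferase, with 9.06, and Mbnl2, a splicing regulator, with 9.05. Their strongest peaks rested on similar reads. Mtdh had 326 immunoprecipitate against 1 input read in pair A and 400 against 1 in pair B. Uprt had 285 against 1 in pair A and 331 against 1 in pair B.

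By number of peaks Frrs1 ranked 8, tied with 1 other gene, where the median gene had 2 peaks. By -log10 p it ranked 19, behind 8 genes at the ceiling of 400. A log2 fold of 8 or more was listed for 81 peaks on 24 genes. Frrs1 held 5 of these peaks, and 6 genes including it held 5 or more.

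The genes most like Frrs1 were sought among the 223 with 5 or more peaks, over 4 features: strongest fold, median fold, number of peaks and 3' UTR share. The nearest was Mtdh, at a scaled distance of 1.40, with 15 peaks, a median log2 fold of 6.74 and 13.3% of peaks in the 3' UTR. Then came mt-Co1, a mitochondrial subunit of cytochrome c oxidase (1.60), Ptpre (1.70), Actb, which encodes beta-actin (1.72), and Triobp, an actin-binding protein (2.30). The peaks of Ptpre and Actb all lay in the 3' UTR and those of mt-Co1 all in exons, while Frrs1 had both. Mtdh likewise had both, and of the peaks of Triobp 80.0% lay in the 3' UTR, so a mix of classes was not particular to Frrs1. The strongest fold, which chose Frrs1, enters this distance. Without it the nearest gene was Slc18a2, which encodes a vesicular monoamine transporter (1.37), with 14 peaks, a median log2 fold of 6.19 and 64.3% of peaks in the 3' UTR; it took the place of Triobp. Frrs1 had 11 separate regions, against 10 in Slc18a2, 6 in Mtdh and mt-Co1, 4 in Ptpre and Triobp and 3 in Actb. Among all genes of the list it ranked 11 by regions, in a tie of 6 genes. Only touching peaks were joined for these counts, and the other genes were not recounted with wider gaps joined.

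**Figure D4:**
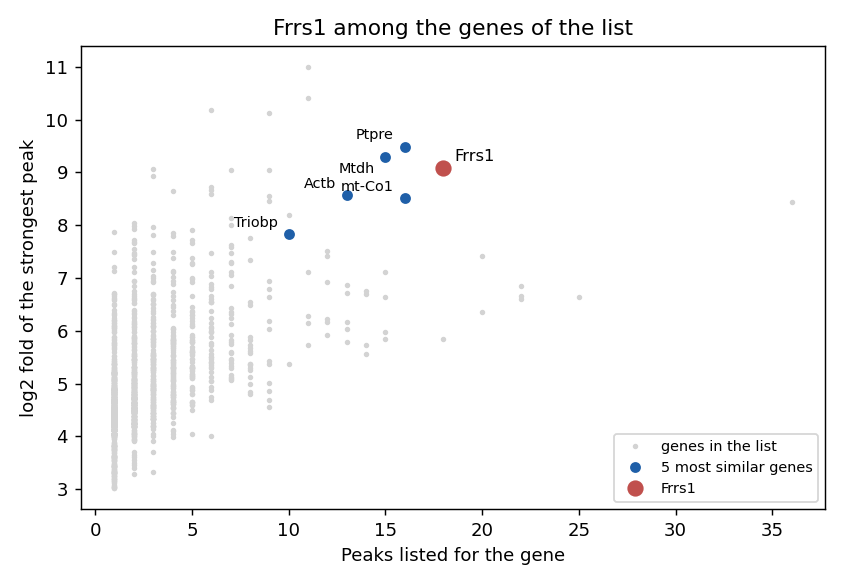
Number of listed peaks (horizontal) and log2 fold of the strongest peak (vertical) for each of the 1629 genes (grey), with Frrs1 in red and the 5 most similar genes in blue. Frrs1 stands at 18 peaks and 9.08, to the right of Ptpre at 16 peaks and 9.49.

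The nearest gene of the list at lower coordinates on the chromosome of Frrs1 was Slc35a3, a nucleotide sugar transporter gene on the minus strand, 226 kb away. It had 1 peak, of log2 fold 3.38, with 13 immunoprecipitate against 2 input reads in pair A and 11 against 2 in pair B. At higher coordinates the nearest was the splicing repressor gene Ptbp2, 2820 kb away, with 2 peaks of up to 4.89.

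Of the 10 other ferric reductases and relatives none had a peak, which is near the 7.33% of all protein-coding genes. They were Frrs1l, Cybrd1, the ferric reductase of the gut, the Steap genes Steap1 to Steap4, and Cyb561 with its relatives Cyb561a3, Cyb561d1 and Cyb561d2. Over the iron lists together, 11 of the 58 genes other than Frrs1 had a peak (19.0%), against the 7.33% of all protein-coding genes. Of these 11, 5 came from the single list of 6 storage and chaperone genes, so the pooled share does not describe each list. The lists were chosen with earlier results of these data known. No expression values were used here, so how many of the iron genes 32D cells transcribe is unknown. Peaks above the list median fold were listed for 8 of all 59 iron genes, Frrs1 included, and for 3.95% of all protein-coding genes. Among genes with a peak that is 8 of 12 iron genes, against 54% of 1605 protein-coding genes. Frrs1 counts in both the 8 and the 12 and, chosen for its fold, was certain to pass. Absence from the list does not show that NAT10 leaves a gene unbound.

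Of 6 genes of iron storage and its chaperones 5 had a peak (83.3%, against the 7.33% of all protein-coding genes). The list is small, and the difference was not tested. Fth1, the ferritin heavy chain, had 8 peaks of up to 5.61, and Ftl1, the ferritin light chain, had 3 of up to 5.14. Ncoa4, the receptor that takes ferritin to the lysosome, had 2 of up to 4.55. The RNA-binding iron chaperones Pcbp1 and Pcbp2 reached 4.78 and 6.25.

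Of 11 uptake and export genes Tfrc, the transferrin receptor, had 4 peaks of up to 5.44, and of 9 regulators Fbxl5, the iron-sensing part of a ubiquitin ligase, had 1 peak of 4.18. These counts of 1 are near the 7.33% of all protein-coding genes. Of 22 genes of haem and iron-sulfur clusters 4 had a peak (18.2%, against 7.33%). These were the haem synthesis enzymes Ppox (5.11) and Urod (4.44) and the mitochondrial iron carriers Slc25a37 (4.79) and Slc25a28 (4.59). No gene of these lists other than Frrs1 exceeded 6.25. The weakest of the 18 Frrs1 peaks, at 5.62, was listed above the strongest peak of each of these genes except Pcbp2. The margin over Fth1, at 5.61, was small. The counting interval of that weakest Frrs1 peak ran from 3.59 to 8.59 in pair B, which set its p. This order is therefore not resolved. Frrs1 was also chosen for the fold of its strongest peak, so a higher fold than in these genes is partly built into the choice.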

How the data were processed

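The only file was the authors' peak list, with no value per library. The deposited p column holds values from 3.07 to a ceiling of 400 and is named only as a p per the file headers; from these values it was read as -log10 p. The deposited fold column was read as log2 of immunoprecipitate over input; no label or header states this, and the basis is that it gives whole read counts. Positions are on GRCm39, per the submitters' processing notes. The sources used here name no aligner, peak caller or cut-off.

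Rows of 1 peak under several genes were counted once in peak counts. Peaks with a gap of 0 nt were joined into regions. Reads were recovered with scipy 1.17.1 in Python 3.11.15. The share of immunoprecipitate reads and the totals of each pair were fitted to the p-values, and input counts up to 20 were tried, with relative tolerances of 2e-07 on the p and 1e-08 on the ratio. The likeness of genes was the Euclidean distance over 4 features, each divided by its SD over genes with 5 or more peaks. Named are Frrs1, the 2 genes above and below it in rank, the 5 most similar, its nearest neighbours in the list and iron genes with a peak; the markers without a peak were chosen after their values were seen. Iron genes were matched by symbol or synonym to the RefSeq table, and all 59 matched. The members and lists were chosen with earlier results of these data known. No sequence of a peak was used here, for want of a genome of this build. Alternatives used stricter thresholds, other joining, other ranks and single pairs.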

Additional observations from a re-analysis of the deposited data

How the results depend on the processing

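All 18 peaks remained with only folds or only p-values above the list median, which restates the result given above. Fold and p rest on the same reads (Spearman's rho 0.95 across the 18 peaks), so these 2 filters are not separate support. The 11 regions became 18 without joining and 7 when gaps of up to 100 nt were joined. The rank of 7 by strongest fold was 19 by -log10 p and 15 by median fold among genes with 5 or more peaks. Chosen after seeing the data, single pairs gave ranks of 9 (pair A) and 7 (pair B), and the lower counting bound a rank of 11. These ranks rest on recovered peaks only, with values for 1608 of the 1629 genes in each pair. The 34 peaks at the p ceiling of 400 had no recovered reads and are left out of them. The median log2 fold of 7.20 became 7.62 with peaks weighted by width. The exon minus 3' UTR difference of 0.18 was 0.12 with means, but -0.12 in pair A and 0.36 in pair B. The causes were not tested. Of the 12 iron genes with a peak, Frrs1 included, 8 had one above the list median fold, against 54% of protein-coding genes with a peak. Frrs1, chosen for its fold, was certain to be among the 8. Without the strongest fold as a feature 4 of the 5 most similar genes were shared, and Slc18a2 was the nearest. No paired analysis was possible because no test was made and the list has no columns per library; the recovered pairs are given side by side as values, and 1 pair alone stands for leaving out a replicate. Low input counts limit the precision of every Frrs1 fold.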
